A study of Mus musculus with 40 samples.

Results

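Hepatic gene expression at the 2 lowest doses of TCDD among the libraries of the series was compared with expression in vehicle controls. The low-dose group held the 10 libraries whose dose label was 0.03 or 0.1 μg/kg, with 5 mice at each dose, and the controls were the 5 libraries with a dose label of 0, so that 15 of the 40 libraries of the series entered. All 15 mice were male C57BL/6 that had received 0.1 ml of sesame oil by gavage, with or without TCDD, every 4 days for 28 days from an age of 30 days to 58 days as the labels give it. The methods of the study put the start of dosing slightly earlier. The strain was the same in every group and carried no engineered allele according to the labels. Each library was made from the liver of 1 mouse, and the measurement was RNA-seq read counts per gene. The comparison asks which genes respond at the lowest doses analysed here. A dose below these, named in the methods of the study, was not analysed here.

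TCDD, the most potent chlorinated dioxin, acts through AhR, the aryl hydrocarbon receptor, which is a transcription factor held in the cytosol by HSP90 and co-chaperones. Transcription of target genes is driven by the receptor together with its partner protein ARNT, and the short DNA motif that the pair prefers, the dioxin response element, has GCGTG as its core. In liver its best known targets are cytochromes P450 of the CYP1 family and enzymes that conjugate or export the oxidized products.

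Promoter sequence was looked up for the 11 genes whose adjusted p fell below 0.05 in any comparison of the main edgeR fits described here. RefSeq (build GRCm38.p6) held a promoter window for 10 of the 11, and Cyb5a was the gene without an entry. The 250 bases before each gene start were searched on both strands for GCGTG, and 4 of the 10 genes had at least 1 match. Among all 32851 promoter windows of the same length in that table, 28.2% held the motif, so a match is a common property of promoters. That share counts windows and not genes: the 10 genes had 12 windows, and the 4 genes had a match in 1 window each. The windows of the 4 genes with a match are printed here 5′ to 3′ on the strand of the gene, with the core in capitals (GCGTG, or CACGC where it lies on the other strand), because they place the core relative to the start of genes that responded.
Cyp1a1 (chr9:57697363-57697612, + strand): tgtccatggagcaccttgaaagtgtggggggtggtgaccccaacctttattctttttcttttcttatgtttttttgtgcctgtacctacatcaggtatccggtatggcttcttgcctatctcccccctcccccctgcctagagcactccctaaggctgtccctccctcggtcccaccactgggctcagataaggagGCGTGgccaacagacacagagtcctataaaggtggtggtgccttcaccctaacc
Htatip2 (chr7:49758856-49759105, + strand): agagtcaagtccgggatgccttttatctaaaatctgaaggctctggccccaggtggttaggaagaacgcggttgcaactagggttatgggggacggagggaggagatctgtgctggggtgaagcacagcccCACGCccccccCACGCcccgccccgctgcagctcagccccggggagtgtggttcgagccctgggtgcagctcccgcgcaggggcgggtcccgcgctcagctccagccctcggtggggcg
Abcc4 (chr14:118706220-118706469, - strand): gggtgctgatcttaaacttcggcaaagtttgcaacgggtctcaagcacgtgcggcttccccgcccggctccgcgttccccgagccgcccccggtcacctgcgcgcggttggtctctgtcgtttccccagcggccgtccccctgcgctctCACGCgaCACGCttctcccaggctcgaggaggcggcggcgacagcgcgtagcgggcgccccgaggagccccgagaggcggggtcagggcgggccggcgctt
Pmm1 (chr15:81960931-81961180, - strand): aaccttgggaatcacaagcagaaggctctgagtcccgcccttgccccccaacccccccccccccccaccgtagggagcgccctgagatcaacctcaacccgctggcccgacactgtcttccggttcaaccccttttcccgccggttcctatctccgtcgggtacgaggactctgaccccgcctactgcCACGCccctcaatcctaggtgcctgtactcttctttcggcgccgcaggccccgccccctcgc
For comparison, the window of Cyp1a2, the neighbour of Cyp1a1 on the opposite strand, held no match.
Cyp1a2 (chr9:57683656-57683905, - strand): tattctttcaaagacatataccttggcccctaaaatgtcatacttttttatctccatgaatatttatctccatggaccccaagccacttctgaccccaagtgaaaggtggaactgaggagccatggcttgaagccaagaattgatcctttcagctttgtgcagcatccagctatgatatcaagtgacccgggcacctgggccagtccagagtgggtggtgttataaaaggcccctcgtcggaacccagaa
In Cyp1a1 the core began 54 bases before the gene start and in Pmm1 62 bases before it. Htatip2 had 2 cores, beginning 119 and 108 bases before the start, and Abcc4 had 2, beginning 101 and 94 bases before it. The Cyp1a1 and Cyp1a2 windows are 13457 bases apart and point away from each other. Slc46a3, Ugt1a9, Cyp2a5, Pcp4l1 and Tuba8 also held no GCGTG in this window, nor did a second annotated start of Htatip2 and of Abcc4. A match describes the letters only and is not a measured binding site, and a missing match says nothing about sites elsewhere.

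The 15 libraries held 15.5 M to 20.9 M counts in genes, with a median of 16.8 M. The mean depth of the low-dose libraries was 17.3 M ± 1.14 (SD, n = 10) against 17.2 M ± 2.12 (SD, n = 5) in vehicle (exact permutation test over 3003 splits, two-sided p = 0.915). The mitochondrial share of counts was 5.95% ± 0.469 against 5.90% ± 0.461 (exact permutation p = 0.857). The 6 hepatocyte markers summed to 78844 to 120171 CPM, that is, read counts scaled to a common library size, which fits the liver label. RNA of another tissue appeared in 2 libraries. Vehicle replicate 2 held 258 CPM of skeletal muscle markers where the other 14 held at most 0.25 CPM, and 0.1 μg/kg replicate 5 held 280 CPM of pancreatic acinar markers where the others held at most 42.1 CPM. The largest axis of variation, 24.9% of the variance, did not separate vehicle from TCDD mice. The title numbers run in triples, and the 5 libraries that came first in a triple lay between -28.4 and -16.9 on that axis. The 4 that came last in theirs were spread, with 0.03 μg/kg replicate 5 and 0.1 μg/kg replicate 5 at 42.3 and 43.1 and vehicle replicate 3 and 0.1 μg/kg replicate 2 at 0.0682 and -7.86. What these numbers stand for is not given in the labels. No 2 libraries of a group agreed within sampling noise.

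Pooled, the low doses raised 6 genes. They were 3 cytochromes P450 (Cyp1a2, Cyp1a1 and Cyp2a5), 1 glucuronosyltransferase (Ugt1a9), 1 transporter (Slc46a3) and 1 oxidoreductase (Htatip2), with rises from 1.80-fold to 439-fold. No gene was called lower in this fit. A gene was called when the quasi-likelihood test of edgeR gave it a Benjamini-Hochberg adjusted p below 0.05 and its fold change was at least 1.5, and the 6 calls were 0.0443% of the 13539 genes tested. The count of lower calls was 0, with 194 lower genes (1.43%) at an unadjusted p below 0.05, and DESeq2 called 1 lower gene, H2-Q1. The lower genes at that threshold included the muscle gene Mylpf (log2 -2.79, edgeR unadjusted p = 0.000416). Mylpf stood at 20.6 CPM in vehicle replicate 2, the library with muscle RNA, and at most 1.06 CPM in the other controls. At that unadjusted threshold 262 genes (1.94%) were higher. Over all genes the median log2 fold change was 6.02e-05, a value that the scaling between libraries holds near 0.

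**Figure D1:**
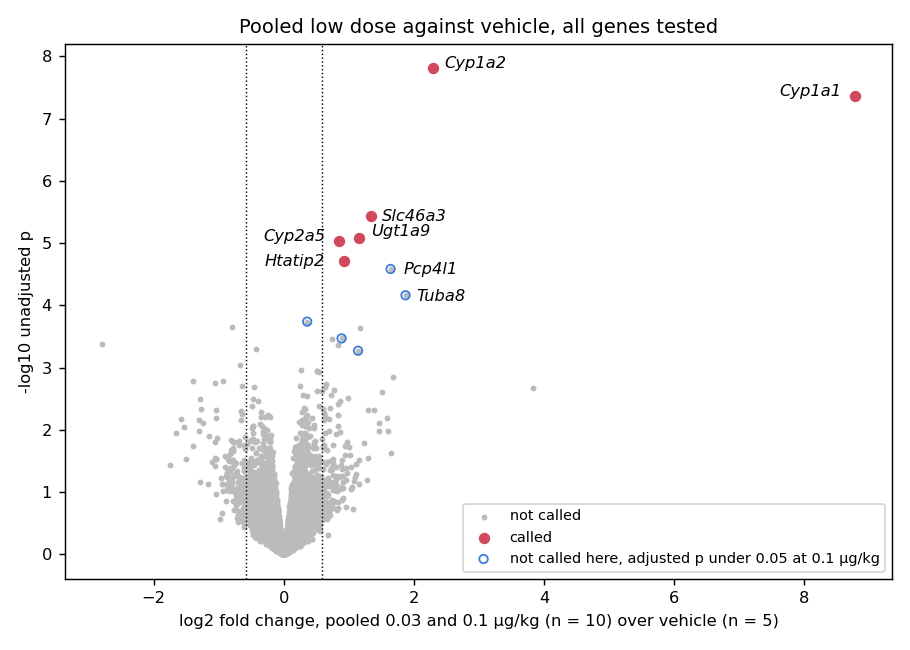
Pooled low dose (10 libraries) against vehicle (5 libraries) for the 13539 genes tested, with the log2 fold change on the horizontal axis, -log10 of the unadjusted p on the vertical axis and dotted lines at a fold of 1.5. The 6 called genes are red and all lie on the right, and the 5 open blue circles are genes that missed the threshold here but had an adjusted p below 0.05 at 0.1 μg/kg.

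The pooled comparison places both doses in 1 group, so any step between 0.03 and 0.1 μg/kg enters the spread against which the change is judged. With 1 mean for each dose and the mean of both set against vehicle, 9 genes were called (0.0665%), which added Pcp4l1, Tuba8 and Abcc4 to the same 6. The calls of the pooled fit beyond the CYP1 genes changed when single libraries were left out, while the fold changes moved little. With 1 library left out, the log2 fold change was 1.27 to 1.40 for Slc46a3 and 1.07 to 1.29 for Ugt1a9. It was 0.78 to 0.93 for Cyp2a5 and 0.87 to 0.99 for Htatip2. Without vehicle replicate 1, 3 or 4 the pooled fit called 2 genes, without vehicle replicate 2 or 5 it called 3, and without 0.1 μg/kg replicate 1 it called 3. Without both vehicle replicate 2 and 0.1 μg/kg replicate 5, the libraries with muscle and pancreas RNA, the pooled fit called 3 genes (Cyp1a2, Cyp1a1 and Ugt1a9) and the fit with 1 mean per dose still called 9. Cyp1a1 and Cyp1a2 were called in each of the 15 fits that left out 1 library, Slc46a3 and Ugt1a9 in 10, Cyp2a5 in 9 and Htatip2 in 5. Slc46a3 was lost without any 1 of the 5 vehicle mice, Ugt1a9 without vehicle replicate 1, 3, 4 or 5 or 0.1 μg/kg replicate 1, and Cyp2a5 without vehicle replicate 1, 2, 3 or 4 or 0.1 μg/kg replicate 1 or 2. Htatip2 was lost without any 1 of the vehicle or 0.1 μg/kg mice.

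Values in single mice are given below as CPM scaled by TMM over the 15 libraries, each group in rising order, and CPM are not corrected for gene length, so that levels of different genes should not be ranked by them. Cyp1a1 (ENSMUSG00000032315), the most inducible hepatic P450 and the standard marker of AhR activation, was nearly silent in vehicle, at 0.901, 1.5, 1.52, 1.61 and 2.14 CPM (14 to 36 counts). At 0.03 μg/kg it stood at 101, 106, 114, 124 and 219 CPM, and at 0.1 μg/kg at 920, 1057, 1324, 1405 and 1433 CPM. The 3 groups lay on 3 separate levels with no overlap. The log2 fold change was 8.78 ± 1.01 (SE; edgeR adjusted p = 0.000289) in the pooled fit. By dose it was 6.42 ± 0.264 (86-fold, adjusted p = 3.57e-11) at 0.03 μg/kg and 9.63 ± 0.291 (792-fold, adjusted p = 1.56e-13) at 0.1 μg/kg, where the vehicle level of 1.53 CPM ± 0.44 (SD, n = 5) is the base of both folds.

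Cyp1a2 (ENSMUSG00000032310), a P450 that hepatocytes express without induction and that also binds dioxins, started from a high level. Vehicle mice held 829, 836, 945, 1000 and 1140 CPM. The 0.03 μg/kg mice held 2642, 3006, 3184, 3285 and 3486 CPM and the 0.1 μg/kg mice 5173, 5211, 6110, 7318 and 7394 CPM, again with no overlap between any 2 groups. The pooled log2 fold change was 2.30 ± 0.249 (SE; edgeR adjusted p = 0.000211), which was the smallest p of all genes. It was 1.72 at 0.03 μg/kg (3.29-fold, adjusted p = 3.76e-07) and 2.72 at 0.1 μg/kg (6.57-fold, adjusted p = 2.73e-10).

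Slc46a3, a lysosomal membrane transporter, had a narrow spread in every group. It measured 50.9, 52.9, 53.0, 54.4 and 58.4 CPM in vehicle. It measured 82.3, 94.8, 95.2, 99.8 and 100 CPM at 0.03 μg/kg and 142, 172, 185, 196 and 196 CPM at 0.1 μg/kg. All 10 treated mice exceeded every control, and the 2 doses did not overlap. The pooled log2 fold change was 1.34 ± 0.209 (SE; edgeR adjusted p = 0.0163). Slc46a3 was the only gene besides the CYP1 pair to be called at 0.03 μg/kg, with 0.81 ± 0.0954 (1.75-fold, adjusted p = 0.000444).

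Ugt1a9, a UDP-glucuronosyltransferase that conjugates phenols and drugs, rose less cleanly. Vehicle mice had 29.9, 32.5, 32.5, 36.9 and 49.6 CPM, the 0.03 μg/kg mice 54.2, 56.8, 64.4, 72.3 and 73.0 CPM, and the 0.1 μg/kg mice 68.3, 78.4, 102, 115 and 124 CPM. Every treated mouse exceeded every control, while the 2 doses overlapped. The pooled log2 fold change was 1.15 ± 0.192 (SE; edgeR adjusted p = 0.0249). The highest control was vehicle replicate 2, the library with muscle RNA. Ugt1a genes share their last exons, and a read that overlaps more than 1 gene was counted for none of them. None of the 6 other Ugt1a genes tested was called (log2 fold changes of -0.12 to 0.54, smallest edgeR unadjusted p = 0.336).

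Cyp2a5, a P450 that oxidizes coumarin and nicotine, measured 320, 364, 410, 416 and 484 CPM in vehicle. It measured 525, 542, 557, 642 and 717 CPM at 0.03 μg/kg and 724, 822, 839, 901 and 922 CPM at 0.1 μg/kg. The 3 groups formed 3 levels that touched closely without overlapping. The pooled log2 fold change was 0.85 ± 0.143 (SE; edgeR adjusted p = 0.0249). Its near-identical relative Cyp2a4 had 0.43 (95% interval -1.09 to 1.95), and reads that match both are not counted, so the level of either is uncertain.

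Htatip2, an oxidoreductase also known as TIP30, measured 39.4, 40.5, 44.6, 46.3 and 48.9 CPM in vehicle. It measured 54.0, 61.5, 64.0, 69.6 and 72.2 CPM at 0.03 μg/kg and 89.5, 94.9, 106, 111 and 114 CPM at 0.1 μg/kg, with no overlap. The pooled log2 fold change was 0.93 ± 0.165 (SE; edgeR adjusted p = 0.0435), which put it just inside the threshold. Pcp4l1, a small protein related to a calmodulin regulator of Purkinje cells, fell just outside it with 1.64 ± 0.300 (adjusted p = 0.0503). Pcp4l1 measured 4.12, 4.91, 6.33, 6.43 and 6.89 CPM in vehicle, 9.92, 10.7, 10.7, 11.1 and 12.8 CPM at 0.03 μg/kg and 19.5, 19.7, 22.3, 26.2 and 36.9 CPM at 0.1 μg/kg. It too formed 3 levels without overlap, the highest value being 0.1 μg/kg replicate 5, the library with pancreatic RNA.

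**Figure D2:**
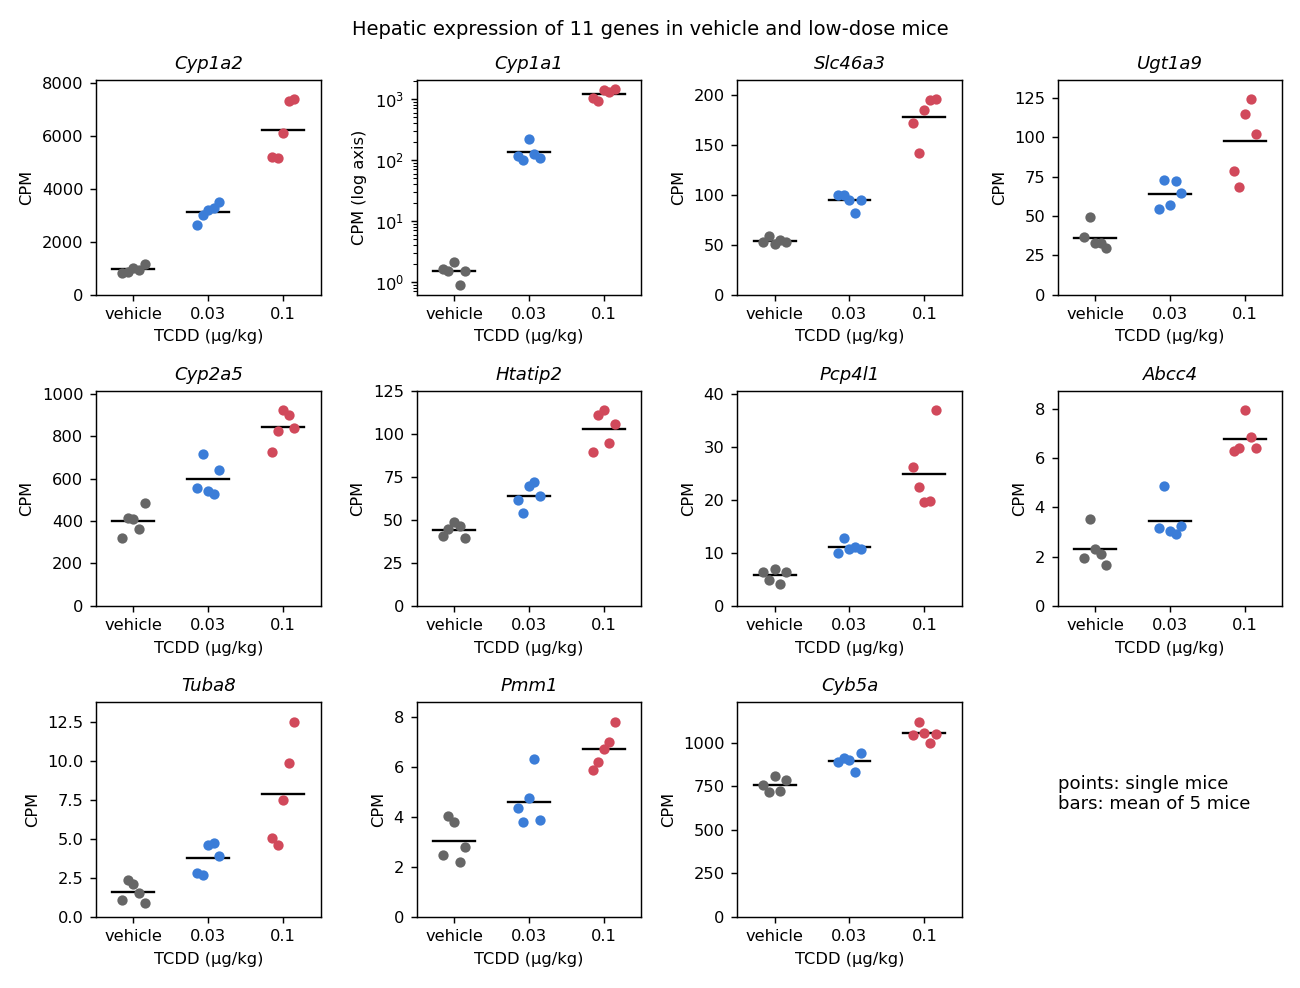
Expression of 11 genes in single mice (points, 5 per group) with group means (bars), in CPM on a linear axis from 0, except Cyp1a1 on a log axis, for vehicle, 0.03 and 0.1 μg/kg TCDD. Cyp1a1, Cyp1a2, Slc46a3, Cyp2a5, Htatip2, Pcp4l1 and Cyb5a form 3 rising levels without overlap, and the doses overlap in Ugt1a9, Tuba8 and Pmm1.

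Separated by dose, 3 genes were called at 0.03 μg/kg (0.0222% of 13539), 10 at 0.1 μg/kg (0.0739%), and none was lower at either dose. At an unadjusted p below 0.05, 143 genes (1.06%) were lower at 0.03 μg/kg and 271 (2.00%) at 0.1 μg/kg. DESeq2 called 5 genes at 0.03 μg/kg, all higher, and 26 at 0.1 μg/kg, of which 21 were higher. Both contrasts use the same 5 vehicle mice. The 3 genes at 0.03 μg/kg were Cyp1a1, Cyp1a2 and Slc46a3, and these were also among the 10 at 0.1 μg/kg. The other 7 at 0.1 μg/kg were Htatip2, Pcp4l1, Cyp2a5, Ugt1a9, Abcc4, Tuba8 and Pmm1. At 0.03 μg/kg these 7 had log2 fold changes of 0.55 to 1.24 that did not pass (edgeR adjusted p of 0.122 to 1.00). A missed threshold at 0.03 μg/kg does not show that a gene kept its vehicle level: the 95% interval for Htatip2 there was 0.34 to 0.76.

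Abcc4, an exporter of conjugates, cyclic nucleotides and bile acids, was called at 0.1 μg/kg with 1.55 ± 0.207 (SE; edgeR adjusted p = 0.00100). It measured 1.66, 1.93, 2.12, 2.32 and 3.52 CPM in vehicle, 2.91, 3.04, 3.15, 3.24 and 4.88 CPM at 0.03 μg/kg and 6.31, 6.40, 6.43, 6.87 and 7.95 CPM at 0.1 μg/kg. The 0.03 μg/kg mice overlapped the controls through vehicle replicate 2 at 3.52 CPM, and the 0.1 μg/kg mice stood above both groups.

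Tuba8, an alpha-tubulin, was called at 0.1 μg/kg with 2.31 ± 0.318 (SE; edgeR adjusted p = 0.00133). It rose from 0.861, 1.06, 1.54, 2.08 and 2.37 CPM in vehicle to 4.61, 5.04, 7.48, 9.87 and 12.5 CPM at 0.1 μg/kg. The values at 0.03 μg/kg, 2.7, 2.78, 3.93, 4.61 and 4.70 CPM, lay above every control and reached into the range of the higher dose.

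Pmm1, a phosphomannomutase of nucleotide-sugar synthesis, was called at 0.1 μg/kg with 1.14 ± 0.196 (SE; edgeR adjusted p = 0.0205). It measured 2.19, 2.48, 2.78, 3.80 and 4.04 CPM in vehicle, 3.82, 3.86, 4.35, 4.76 and 6.31 CPM at 0.03 μg/kg and 5.90, 6.22, 6.72, 7.00 and 7.83 CPM at 0.1 μg/kg. The 0.03 μg/kg group overlapped both of the others. Without vehicle replicate 1, 4 or 5 or 0.1 μg/kg replicate 3, 4 or 5, Pmm1 was no longer called at 0.1 μg/kg, with counts of called genes of 9 to 11.

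Cyb5a, the microsomal cytochrome b5 that passes electrons to P450s, passed the adjusted threshold at 0.1 μg/kg without reaching a fold of 1.5, which made 11 genes (0.0812%) with an adjusted p below 0.05. It measured 718, 724, 761, 787 and 812 CPM in vehicle, 831, 892, 900, 912 and 945 CPM at 0.03 μg/kg and 1003, 1045, 1052, 1056 and 1124 CPM at 0.1 μg/kg. The 3 groups did not overlap although the step from vehicle to 0.1 μg/kg was only 1.39-fold (log2 0.47 ± 0.0718 SE, edgeR adjusted p = 0.00436).

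The contrast of 0.1 with 0.03 μg/kg compares 2 dose means and leaves out the vehicle mean. Its filter, scaling and spread came from all 15 libraries, vehicle included. It called 5 genes (0.0369% of 13539), all higher at 0.1 μg/kg, namely Cyp1a1 (log2 3.21 ± 0.208 SE), Cyp1a2 (1.00 ± 0.123), Slc46a3 (0.91 ± 0.0949), Htatip2 (0.68 ± 0.100) and Pcp4l1 (1.17 ± 0.174), with edgeR adjusted p between 9.74e-08 and 0.00670. The count was 5 in each of the 15 fits that left out 1 library. The count of lower calls was 0, with 301 lower genes (2.22%) at an unadjusted p below 0.05, and DESeq2 called 9 genes of which 8 were higher. Over all genes tested, 7 genes (0.0517%) had vehicle, 0.03 and 0.1 μg/kg mice on 3 rising levels without overlap, and these were the same 5 with Cyp2a5 and Cyb5a. The count on 3 falling levels was 0. All 10 treated mice exceeded all controls in 16 genes (0.118%) and lay below them in 4 (0.0295%). Outside the 11 genes named above, none of these had an adjusted p below 0.05, the nearest being Sema5b (1.17 ± 0.259, edgeR adjusted p = 0.281), which was picked after its values were seen.

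The dose rose 3.33-fold between the groups, and the rise in expression over the vehicle mean was compared with that step. For Cyp1a1 the excess over vehicle was 131 CPM at 0.03 μg/kg and 1227 CPM at 0.1 μg/kg, a ratio of 9.34 ± 1.73 (SE from the spread between mice). For the other 10 genes the ratio lay between 2.17 ± 0.365 (Cyb5a) and 3.96 ± 1.55 (Abcc4). It was 2.44 ± 0.278 for Cyp1a2 and 3.06 ± 0.354 for Slc46a3. These ratios describe the 2 doses and were not tested against each other.

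Set in the full series, with TMM over all 40 libraries, the 2 low doses sat at different places on each gene's range. Cyp1a2 reached 14.6% of its highest group mean at 0.03 μg/kg and 29.1% at 0.1 μg/kg, the highest mean being at 30 μg/kg. Cyp1a1 reached 2.11% and 19.4% of a highest mean found at 3 μg/kg. Slc46a3 reached 33.4% and 62.9% of its highest mean, which lay at 1 μg/kg, and its level at 30 μg/kg (138 CPM ± 67.0, SD, n = 5) was below that at 0.1 μg/kg (192 CPM ± 22.8). Cyb5a likewise peaked at 1 μg/kg, with 66.3% and 78.1% of that mean at the low doses. Abcc4 had 1.62% and 3.20% of its mean at 30 μg/kg, and its means at 1 and 3 μg/kg (5.81 and 5.22 CPM) were below the 7.33 CPM at 0.1 μg/kg, with ranges that overlapped. Cyp2a5 measured 908 CPM at 0.1 μg/kg, between 1020 and 1219 CPM from 0.3 to 10 μg/kg, and 5326 CPM ± 2412 at 30 μg/kg. These levels are a description with no test, and every dose refers to the same vehicle mice.

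**Figure D3:**
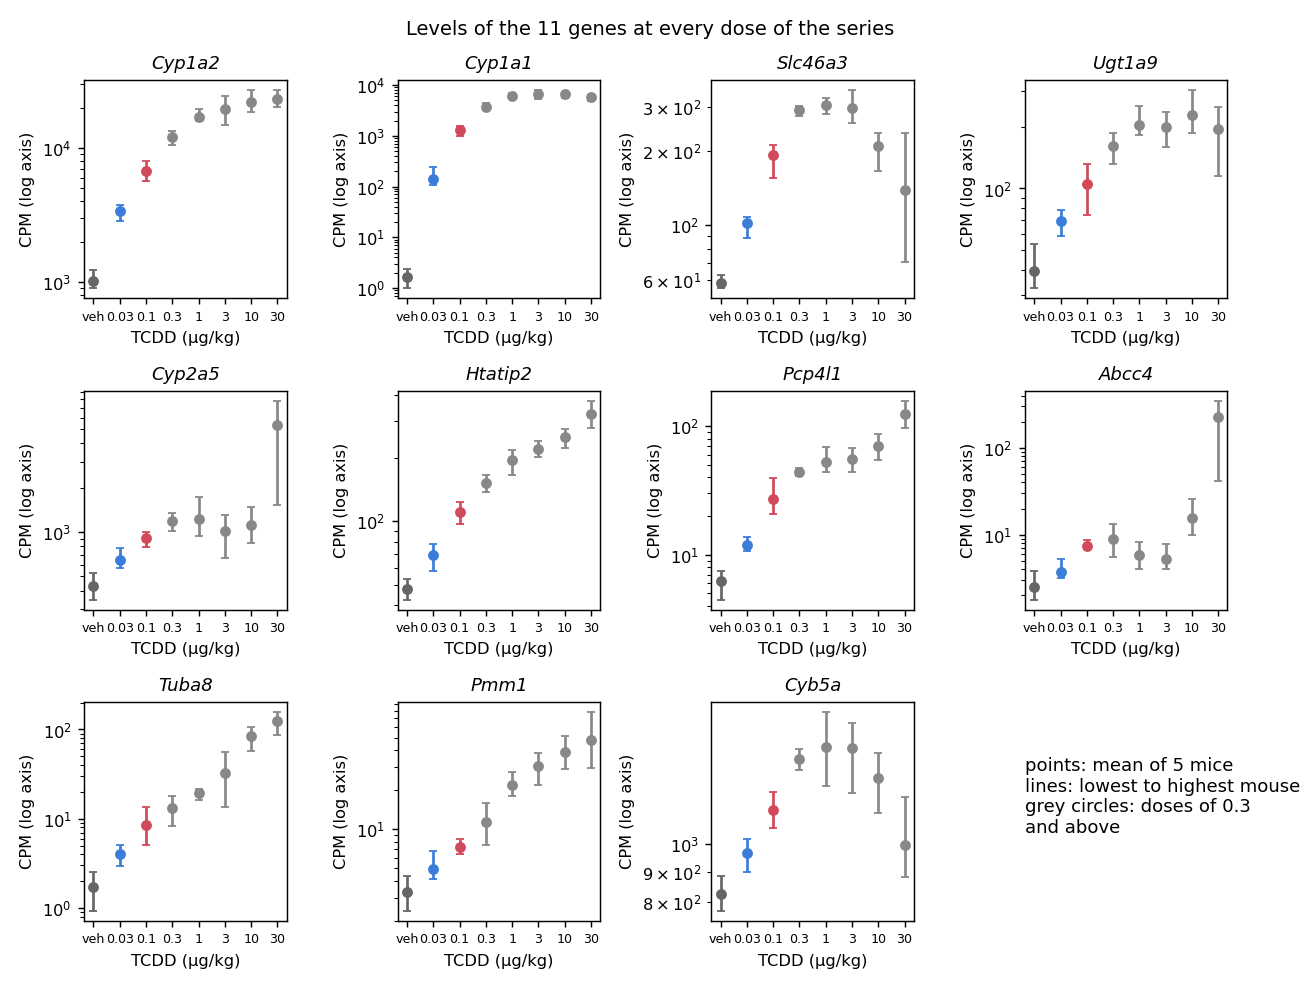
Mean CPM of 5 mice (points) with the lowest and highest mouse (lines), on a log axis, for the same 11 genes at vehicle and the 7 doses of the series, the low doses in blue (0.03 μg/kg) and red (0.1 μg/kg). The means of Htatip2, Pcp4l1, Tuba8 and Pmm1 go on rising to 30 μg/kg, while Slc46a3 and Cyb5a have their highest mean at 1 μg/kg.

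The AhR battery, a list of 20 genes taken as induced by AhR ligands, had 18 members with enough counts to be tested. It was chosen with earlier results of these data known, so its shares beside all genes describe the list and test nothing. In the pooled comparison 4 of the 18 were called, all higher (Cyp1a2, Cyp1a1, Slc46a3 and Cyp2a5), and the median log2 fold change of the list was 0.35 beside 6.02e-05 over all genes, of which 0.0443% were called. At an unadjusted p below 0.05, 9 of 18 were higher and 0 lower, beside 1.94% higher and 1.43% lower over all genes. The median was 0.17 at 0.03 μg/kg and 0.57 at 0.1 μg/kg. Several classical members did not pass at these doses. Nqo1, a quinone reductase, had a log2 fold change of 0.63 (95% interval 0.26 to 1.00, edgeR adjusted p = 0.890) and measured 4.63 to 6.81 CPM in vehicle and 6.40 to 12.8 CPM in treated mice, ranges that overlap. Cyp1b1, the third CYP1 enzyme, was barely detected in vehicle (0.0663 to 0.635 CPM) and had 1.46 (0.44 to 2.49, adjusted p = 1.00). Ugdh, which makes UDP-glucuronic acid, had 0.33 (0.12 to 0.55), and Xdh, xanthine dehydrogenase, 0.21 (0.02 to 0.41), both with an adjusted p of 1.00.

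Other members of the battery had intervals that included 0. Tiparp, an ADP-ribosyltransferase that represses AhR, had -0.40 (95% interval -0.84 to 0.03), with 3.51 to 6.75 CPM in vehicle and 2.18 to 5.09 CPM in treated mice. The glucuronosyltransferases Ugt1a6a and Ugt1a6b had 0.03 (-0.59 to 0.64) and -0.12 (-0.38 to 0.14). The glutathione transferases Gsta1 and Gsta2 had -0.20 (-0.84 to 0.44) and -0.04 (-0.40 to 0.33). The fatty acid transporter Cd36 had 0.36 (-0.23 to 0.96), with a value of 0.68 at 0.1 μg/kg and -0.05 at 0.03 μg/kg. Fmo2, a flavin monooxygenase, had -0.11 (-0.61 to 0.38), and Cyp2s1, another P450, 0.25 (-1.02 to 1.53). Cyp2s1 was below 3 CPM in every mouse, and its interval was wide. Ahrr, the AhR repressor, had at most 5 counts in any of the 15 libraries, and Aldh3a1, an aldehyde dehydrogenase, at most 2, so that neither was detectable as changed at this depth, where 3 counts correspond to 0.138 to 0.201 CPM.

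None of the 6 genes for the AhR itself and its partners was called. Ahr measured 33.9 to 41.1 CPM in vehicle and 18.8 to 66.0 CPM in treated mice (0.19, 95% interval -0.23 to 0.62). Arnt, its DNA-binding partner, had -0.07 (-0.27 to 0.12). The chaperones Hsp90aa1 and Hsp90ab1 had 0.08 (-0.33 to 0.50) and 0.19 (-0.04 to 0.42), and the co-chaperone Ptges3 had 0.04 (-0.13 to 0.20). A fold of 1.5 is 0.585 on the log2 scale, and among the 5 genes named here the interval of Ahr alone reached past it.

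**Figure D4:**
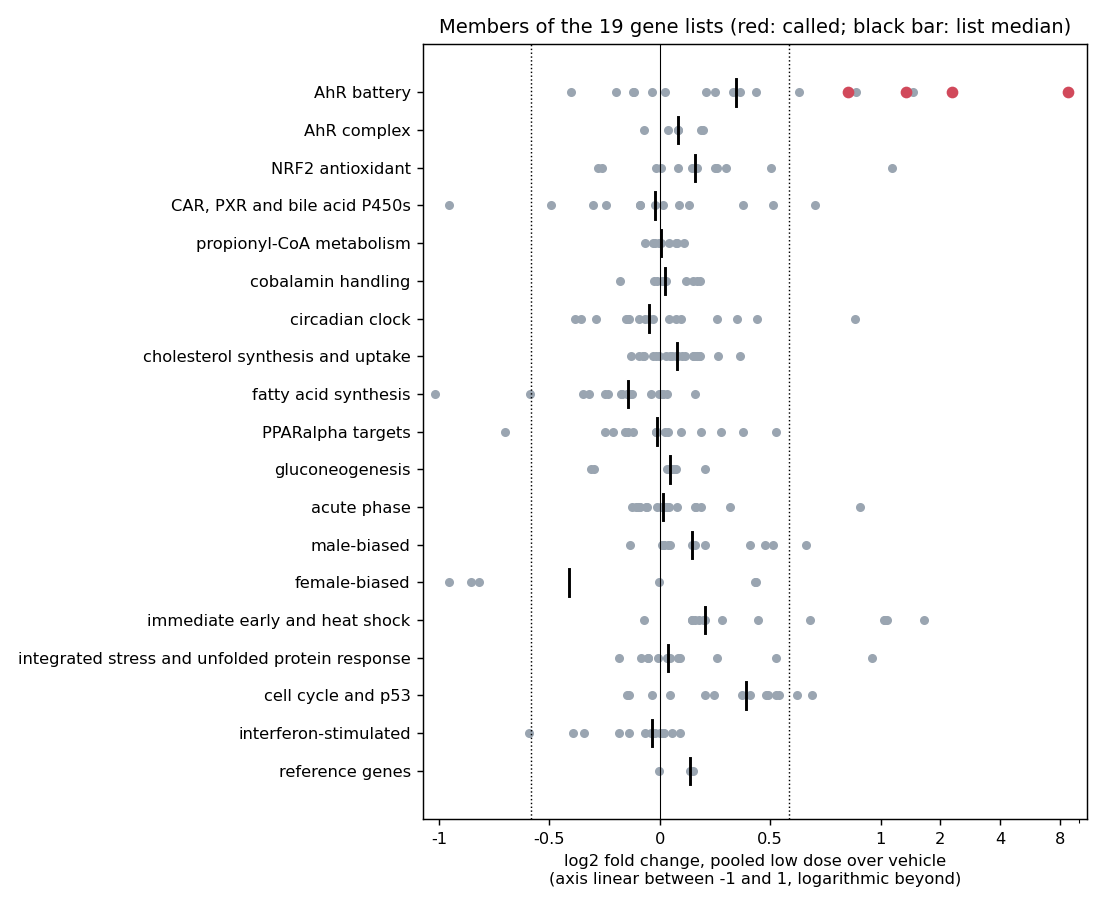
Log2 fold change, pooled low dose over vehicle, of the tested members of 19 gene lists (points, red where called) with the list median (black bar) and dotted lines at a fold of 1.5, on an axis that is linear between -1 and 1 and logarithmic beyond. Red points occur in the AhR battery alone, and the propionyl-CoA and cobalamin lists lie within 0.2 of 0.

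None of the other 17 lists had a called gene in the pooled comparison. The 9 tested genes of propionyl-CoA metabolism, the subject of the study at higher doses, lay between -0.07 and 0.11 (median 0.0043, 0 of 9 at an unadjusted p below 0.05), with 95% intervals that ended at -0.41 and 0.32. The 11 genes of cobalamin handling lay between -0.18 and 0.18 (median 0.02, 0 of 11). The 12 tested genes of the NRF2 antioxidant response had a median of 0.16, and 4 were higher and 0 lower at an unadjusted p below 0.05 (1.94% and 1.43% over all genes), namely Abcc4 (1.14), Gstm3 (0.50), Ephx1 (0.25) and Gsr (0.17). Abcc4 alone was called at 0.1 μg/kg.

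The same shares over all genes, 1.94% higher and 1.43% lower, apply to the lists of lipid and nuclear receptor genes. Among them, the 18 of fatty acid synthesis had a median of -0.15 and 3 members lower at an unadjusted p below 0.05, Pnpla3 (-1.05), Elovl6 (-0.59) and Pklr (-0.32), each with an adjusted p of 1.00. The 13 tested P450 genes driven by CAR, PXR or bile acids had a median of -0.02, with Cyp2c55 (-0.49), Cyp3a25 (-0.30) and Cyp3a11 (-0.24) lower and Cyp8b1 (0.38) higher at that threshold. The 22 genes of cholesterol synthesis and uptake had a median of 0.08 with 2 higher. The 16 PPARalpha targets (median -0.01), 8 gluconeogenic genes (0.05) and 18 acute phase genes (0.01) had 0 members at that threshold.

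Each of the remaining lists had 0 or 1 member at an unadjusted p below 0.05, where the share over all genes was 3.37%. The 17 circadian genes had 1 (Npas2, -0.36, median -0.05), the 13 male-biased genes 0 (median 0.15) and the 6 tested female-biased genes 1 (Acot3, -0.82, median -0.41). The 15 immediate early and heat shock genes had 1 (Hspa1a, 1.65, median 0.21), the 14 cell cycle and p53 genes 1 (Mcm2, 0.41, median 0.39), and the 13 stress response genes and 14 interferon-stimulated genes 0 (medians 0.04 and -0.03). The 3 reference genes had a median of 0.14. The medians of the female-biased and cell cycle lists lay farthest from 0. The outermost interval ends of any member were -2.51 and 2.00 in the first and -0.85 and 1.46 in the second. Of the female-biased genes 2 were above 0 and 4 below, and of the cell cycle genes 11 and 3. The immediate early and heat shock list had 14 and 1, and the male-biased list 12 and 1. Signs over all genes were not counted beside these. By dose, the immediate early and heat shock median was 0.41 at 0.03 μg/kg and 0.027 at 0.1 μg/kg. In the same order the cell cycle median was 0.43 and 0.15, the male-biased median 0.08 and 0.23, and the female-biased median -0.27 and -0.31. Whether any list moved as a set was not tested.

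Marker genes of other cells were examined in the same way. In whole liver, fewer cells of a type and less RNA per cell cannot be told apart. No marker of hepatocytes, macrophages, endothelial cells, stellate cells, cholangiocytes, lymphocytes, red blood cells, acinar cells or adipocytes among those tested was called, and list medians lay between -0.15 and 0.12. Only 1 of 9 acinar and 1 of 5 adipocyte markers had enough counts to be tested, so those 2 medians are single genes. Sox9 (-0.41) was the single marker at an unadjusted p below 0.05. The 8 macrophage markers summed to 131 to 189 CPM in vehicle and 149 to 236 CPM in treated mice, which overlap. Neutrophil markers summed to at most 1.19 CPM in every library and were not tested, and neither were the muscle markers.

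The title numbers pass through the dose series in 2 runs, up to number 27 and after it. Within each run the 11 genes were higher in treated mice, but they were chosen from these same mice with both runs together. Their direction within a run is therefore no independent test. Run 1 held 3 vehicle and 4 treated mice and run 2 held 2 vehicle and 6 treated mice. Cyp1a1 had log2 fold changes of 8.30 and 9.30 in the 2 runs, Cyp1a2 2.18 and 2.29, Slc46a3 1.25 and 1.39, and Htatip2 0.82 and 1.01. Larger steps between runs were seen for Tuba8 (1.06 and 2.56), Ugt1a9 (0.79 and 1.5) and Pmm1 (0.57 and 1.28). The pooled fit called 3 genes in run 1 and 0 in run 2, where 402 genes had an unadjusted p below 0.05. With 1 mean per dose it called 4 in run 1 and 5 in run 2, and Cyp1a1, Cyp1a2 and Slc46a3 were among both.

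The precision of the pooled comparison sets what could have been seen. The median standard error of a log2 fold change was 0.146 and the median half-width of its 95% interval 0.304. For 79.9% of the genes tested the half-width was below the log2 of 1.5. These intervals are not adjusted for the number of genes, while a call needed an adjusted p below 0.05. A change of that size could therefore be missed in these genes too. Abcc4, with 1.14 ± 0.276 (SE), was not called in the pooled fit (edgeR adjusted p = 0.426).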

How the data were processed

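Liver RNA of 15 male mice, 1 library each, was analysed, and the other 25 libraries of the series entered only the levels at higher doses and 1 alternative fit. The authors deposited raw counts per gene from the STAR aligner, with FastQC 0.11.7, Trimmomatic 0.39 and STAR 2.7.3a in the submitters' processing notes, which name the builds GRCm39 and mm10 without a role, so no gene coordinates are given for the counts. The unstranded column was used, so a read that overlaps more than 1 gene, on either strand, is ambiguous and counts for none of them. Rows for unmapped (3.70% to 7.72% of reads), multimapping (5.43% to 6.77%), unassigned (3.51% to 7.06%) and ambiguous reads (5.01% to 5.71%) were left out. Of 55359 gene identifiers, 52083 were named through a GENCODE table. A table of values normalized by the authors and deposited beside the counts was not used.

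Counts were tested in R 4.3.3 with edgeR 4.0.16 (quasi-likelihood F test, TMM scaling, filterByExpr with a minimum count of 10 and a minimum total of 15), with the 10 low-dose libraries as 1 group. Contrasts by dose came from a fit with 1 mean per group. Calls needed a Benjamini-Hochberg adjusted p below 0.05 and a fold of at least 1.5. Library values were compared by exact permutation. The fit was run on simulated data in which both low doses shared the same fold change. The simulation therefore says nothing about a step between the doses. Named genes were all called genes of any contrast of the main edgeR fits, all members of the AhR lists, and list members as examples. The members and lists were chosen with earlier results of these data known. Alternatives were DESeq2 1.42.0, other scaling and filters, a robust fit, other covariates and libraries left out. Replicate numbers follow accession order and pair no mice. Some list members are not reported here by name.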

Additional observations from a re-analysis of the deposited data

Results flagged for a closer look

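Of 75 groups of 5 libraries examined for a value that stood far from the rest, 5 held such a value, and chance gives about 1 in 20. Cyp1a1 in 0.03 μg/kg replicate 3 measured 219 CPM, where the other 4 mice of the dose held 101 to 124 CPM. Abcc4 in 0.03 μg/kg replicate 2 measured 4.88 CPM against 2.91 to 3.24 CPM in the other 4. The pancreatic acinar marker sum of 0.1 μg/kg replicate 5 was 280 CPM against 16.1 to 20.5 CPM. The skeletal muscle marker sum of vehicle replicate 2 was 258 CPM against 0 to 0.0594 CPM, and Acta1, skeletal muscle actin, stood at 136 CPM there. Vehicle replicate 1 was the deepest control, with 20.9 M counts in genes against 15.5 M to 16.8 M. The causes were not tested.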

How the results depend on the processing

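In all 33 alternatives the 11 genes named as responding were higher in the pooled low-dose group. They were chosen from the same libraries, so this direction was largely set by the choice. The number of genes called in the pooled comparison, 6 in the reported fit, moved more. It was 14 with DESeq2 (13 higher; 15 without the fold limit), 3 with a robust fit, 11 with all 40 libraries in the fit (7 higher), 3 with run as a covariate, 2 with run and position as covariates, 3 in run 1 alone, 0 in run 2 alone and 3 without vehicle replicate 2 and 0.1 μg/kg replicate 5. It was 30 with no filter on low counts, of which 9 were higher, and the lower ones included Acta1, Ttn and Tnnt3, muscle genes carried by vehicle replicate 2. With 1 mean per dose it was 9, or 10 without the fold limit, and adding run as a covariate gave 10 without that limit, while adding run and position gave 10, or 11 without it. These combinations with 1 mean per dose, and the exclusion of the 2 libraries, were chosen after seeing the data. Leaving out 1 library gave 2 to 7 calls with or without the fold limit. At 0.03 μg/kg, 3 calls became 5 with DESeq2 and 7 with no filter (5 higher), and 3 to 4 with 1 library left out. At 0.1 μg/kg, 10 became 26 with DESeq2, 25 with no filter (18 higher) and 17 with run and position, and 9 to 13 with 1 library left out. For 0.1 against 0.03 μg/kg, 5 became 9 with DESeq2 and 8 with run and position.

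Genes not called changed sign in some alternatives. Log2 values are given, with the fit with 1 mean per dose second where it changed sign too. In run 1 alone these were Gsta1 (0.0508 and 0.0433), Gsta2 (0.160 and 0.158), Hsp90aa1 (-0.0759 and -0.0810) and Hsp90ab1 (-0.00467 and -0.00532). In run 2 alone they were Ugt1a6a (-0.22 and -0.23), Fmo2 (0.17 and 0.14) and Ahr (-0.0150 and -0.0258). With run and position they were Cyp2s1 (-0.00461 and -0.16), Fmo2 (0.0186 and 0.0124) and Ptges3 (-0.00566 and -0.00373). Without the 2 libraries they were Gsta2 (0.00304 and 0.00120), Fmo2 (0.17 and 0.17) and Ptges3 (-0.00878 and -0.00586). With 1 library left out, Ugt1a6a ranged from -0.12 to 0.19, Gsta1 from -0.38 to 0.0472, Gsta2 from -0.14 to 0.0831, Cyp2s1 from -0.28 to 0.58, Fmo2 from -0.25 to 0.13 and Hsp90aa1 from -0.0433 to 0.16. The difference in depth was -0.397 M counts in run 1 and -0.333 M to 1.01 M with 1 library left out. That in mitochondrial share was -0.323 percentage points in run 2 and -0.125 to 0.153 with 1 left out, and that in TMM factor 0.00999 in run 2 and -0.0256 to 0.00138 with 1 left out. The causes were not tested. No paired analysis was possible because replicate numbers follow the order of accessions and tie no mouse to another.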
